A study of Homo sapiens with 4 samples.

Results

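The cluster of miR-183, miR-96 and miR-182 is a group of 3 miRNA hairpins that lie close together on chromosome 7, and its guide strands were followed here as hsa-miR-182, hsa-miR-183 and hsa-miR-96, the names without an asterisk in the array files. These 3 were taken by name from the 851 human miRNAs on the array, and all 3 were found. The cells were HepG2, a long-established line from a human liver tumour. They received 40 µM berberine chloride, a plant alkaloid dissolved in dimethyl sulfoxide (DMSO), or only 0.08% DMSO as the control. RNA was extracted at 2 h or at 4 h of treatment, and each of the 4 conditions was measured on 1 single-colour Agilent human miRNA microarray. The comparison asks whether berberine changed the level of these miRNAs within hours. No condition had a replicate culture, so no spread between cultures is known for any value.

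A miRNA gene is transcribed as a longer primary transcript, from which each hairpin is cut out and trimmed to a short duplex. The guide strand of the duplex is loaded into an Argonaute protein, and its seed, the bases 2 to 8 from the 5′ end, pairs with target mRNAs. The hairpins of this cluster are transcribed together, and their miRNAs are best known from sensory organs such as the inner ear, where mutations in the seed of miR-96 cause hearing loss. They are also often raised in carcinomas and share targets such as the transcription factor FOXO1.

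The mature sequences are shown because the members differ by single bases in their seeds, and because probes for such related sequences can bind each other's targets. They were taken from RefSeq (GRCh38.p14), which lists the members under the names with -5p, and all 3 matched. Seeds are in capitals.
hsa-miR-183 (MIR183, minus strand, chr7:129774967-129774988): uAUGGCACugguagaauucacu
hsa-miR-96 (MIR96, minus strand, chr7:129774739-129774761): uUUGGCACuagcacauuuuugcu
hsa-miR-182 (MIR182, minus strand, chr7:129770447-129770470): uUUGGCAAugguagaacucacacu
The 5′ end of hsa-miR-96 lies 227 bases downstream of that of hsa-miR-183 in the direction of transcription, and hsa-miR-182 follows 4291 bases after hsa-miR-96. Counted from 1 at the 5′ end and with hsa-miR-96 as the reference, the seed of hsa-miR-182 differs by C8A and that of hsa-miR-183 by U2A. Over their full length and without gaps, hsa-miR-182 and hsa-miR-183 are the closest pair, with 18 of 22 bases identical (81.8%). By the same count hsa-miR-96 shares 13 of 22 bases with hsa-miR-183 (59.1%) and 12 of 23 with hsa-miR-182 (52.2%).

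All 4 arrays were on the same slide, scanned once, and none of their spots was saturated. The number of human miRNAs detected was 199 to 242 per array, of which 197 were detected on all 4. The 75th percentile of the signal over these 197 miRNAs was 169 to 297, so the arrays were not equally bright, lowest on the berberine array at 2 h and highest on the berberine array at 4 h. Signals were therefore taken on the log2 scale minus that percentile of the same array, and values after this step are called scaled. The hepatocyte markers hsa-miR-122, hsa-miR-192, hsa-miR-194 and hsa-miR-148a were detected on all 4 arrays, hsa-miR-122 with a signal of 22.4 to 39.9. None of the 3 muscle markers was detected on any array. Neither were the neuron markers hsa-miR-124 and hsa-miR-9 or the blood cell markers hsa-miR-142-5p and hsa-miR-223. The neuron marker hsa-miR-128 and the mesenchymal markers hsa-miR-145 and hsa-miR-199a-3p were detected on all 4 arrays. The blood cell markers hsa-miR-142-3p (6.13) and hsa-miR-451 (5.31) and the mesenchymal marker hsa-miR-143 (3.95) were detected on the berberine array at 4 h alone, the brightest array, and their part in the results was not tested.

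All 3 members were detected on all 4 arrays, and after scaling none of them differed between berberine and control by more than 2-fold or beyond its measurement error at either time. The signals that follow are not scaled. The total signal, an intensity summed over the probes of a miRNA, is given with the error of the Feature Extraction software, which covers the measurement on 1 array. hsa-miR-96, whose seed mutations are known from deafness, gave 196 ± 14.1 with DMSO and 138 ± 10.1 with berberine at 2 h, and 168 ± 12.2 with DMSO and 218 ± 15.6 with berberine at 4 h. hsa-miR-183, the member at the start of the cluster, gave 51.3 ± 3.19 with DMSO and 33.2 ± 2.40 with berberine at 2 h, and 46.2 ± 3.04 with DMSO and 61.4 ± 3.77 with berberine at 4 h. hsa-miR-182, the last of the cluster, gave 11.4 ± 1.24 with DMSO and 5.93 ± 0.988 with berberine at 2 h, and 8.52 ± 1.13 with DMSO and 14.5 ± 1.48 with berberine at 4 h. For each of the 3, the unscaled signal was lowest on the berberine array at 2 h and highest on the berberine array at 4 h, the same order as the brightness of these arrays.

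**Figure D1:**
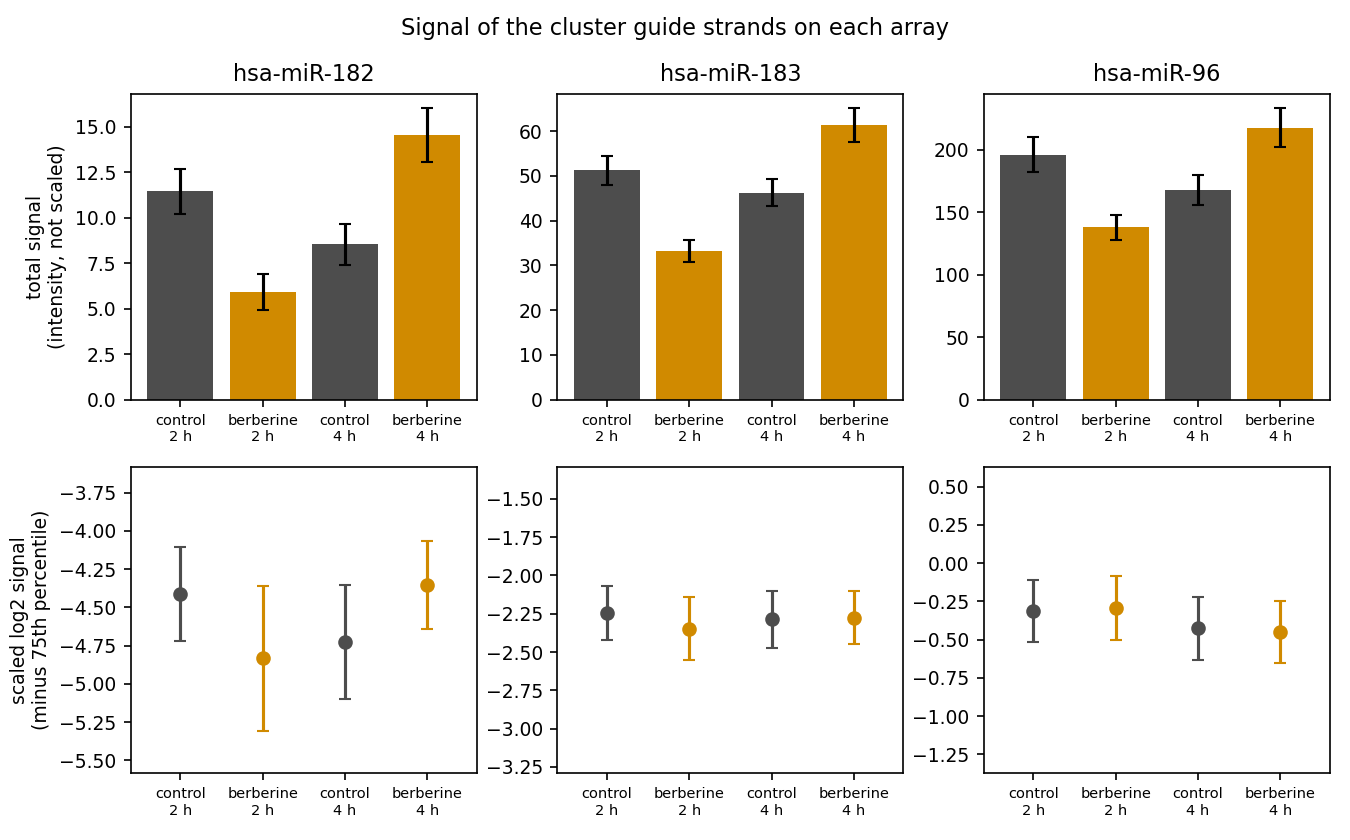
Signal of hsa-miR-182, hsa-miR-183 and hsa-miR-96 on the 4 arrays. The upper bars give the total signal (intensity, not scaled) with the Feature Extraction error, and the lower points give the scaled log2 signal with bars of 1.96 standard errors, control in grey and berberine in orange. In the upper row the berberine array is lowest at 2 h and highest at 4 h for all 3, and in the lower row the bars of the 4 arrays overlap for each miRNA.

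After scaling, hsa-miR-96 lay between -0.45 and -0.29 on the log2 scale over the 4 arrays, a range of 0.16. Its order from high to low was berberine at 2 h, control at 2 h, control at 4 h and berberine at 4 h, and no neighbours in this order differed beyond 1.96 standard errors (SE). hsa-miR-183 lay between -2.35 and -2.25, a range of 0.100, with control at 2 h highest and berberine at 2 h lowest. hsa-miR-182 lay between -4.83 and -4.35, a range of 0.48, with berberine at 4 h highest and berberine at 2 h lowest. Neighbours in the order of hsa-miR-183 and of hsa-miR-182 were within 1.96 SE of each other as well. Scaled signals are not compared between the miRNAs, since each has its own probes.

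At 2 h the scaled ratio of berberine over control was 1.01-fold for hsa-miR-96 (log2 ratio 0.020, SE 0.15, 95% range 0.829 to 1.24-fold). hsa-miR-183 was at 0.933-fold (log2 ratio -0.100, SE 0.14, 95% range 0.774 to 1.12-fold). hsa-miR-182 was at 0.746-fold (log2 ratio -0.42, SE 0.29, 95% range 0.505 to 1.10-fold). Of the members, 0 of 3 were more than 2-fold changed, against 2 of the 197 miRNAs with a ratio at 2 h (1.02%), of which 1 was higher (0.508%) and 1 lower (0.508%), and 0 of 3 lay beyond 1.96 SE of no change, against 18 of 197 (9.14%). The middle 95% of the 197 log2 ratios ran from -0.61 to 0.49, which holds all 3 members.

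At 4 h the scaled ratio was 0.985-fold for hsa-miR-96 (log2 ratio -0.022, SE 0.15, 95% range 0.806 to 1.20-fold). hsa-miR-183 was at 1.01-fold (log2 ratio 0.010, SE 0.13, 95% range 0.844 to 1.20-fold), and hsa-miR-182 at 1.29-fold (log2 ratio 0.37, SE 0.24, 95% range 0.933 to 1.79-fold). Again 0 of 3 members were more than 2-fold changed, against 2 of 218 miRNAs (0.917%), of which 1 was higher (0.459%) and 1 lower (0.459%), and 0 of 3 lay beyond 1.96 SE, against 25 of 218 (11.5%). The median log2 ratio of all miRNAs was -0.020 at 2 h and 0.11 at 4 h. These ranges cover measurement error only, and a change smaller than their bounds could not be told from none.

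**Figure D2:**
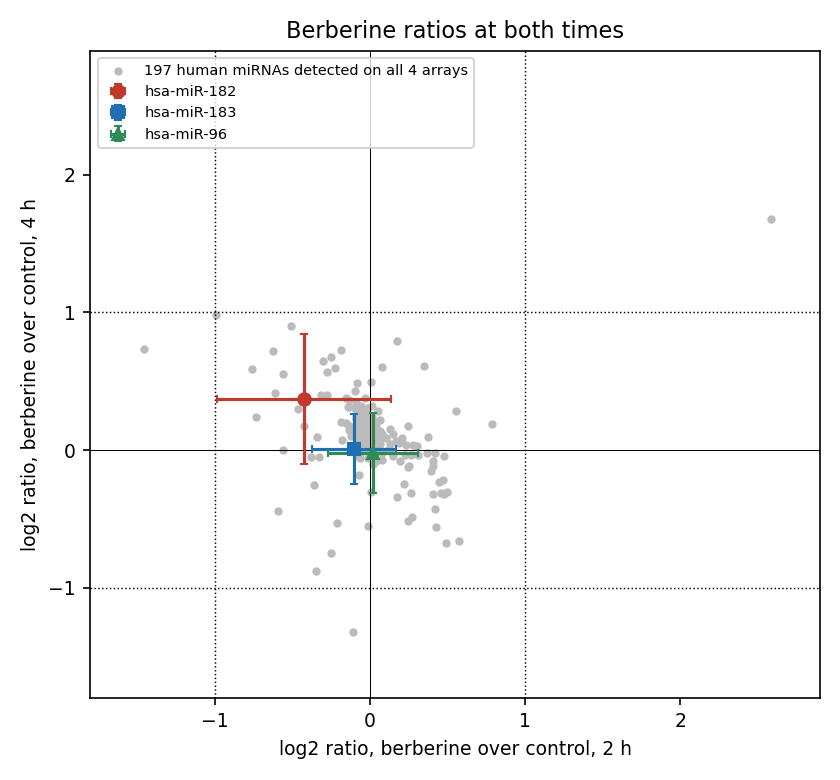
Scaled log2 ratio of berberine over control at 2 h (horizontal axis) and at 4 h (vertical axis) for the 197 human miRNAs detected on all 4 arrays (grey), with the 3 members in colour and bars of 1.96 SE. Dotted lines mark 2-fold; hsa-miR-183 and hsa-miR-96 sit near 0 on both axes, and hsa-miR-182 lies at -0.42 and 0.37.

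Scaling changed the size of the ratios for all 3 members and the sign for hsa-miR-96 alone. Without scaling, the ratios were 0.705-fold for hsa-miR-96, 0.649-fold for hsa-miR-183 and 0.518-fold for hsa-miR-182 at 2 h. At 4 h they were 1.30-fold, 1.33-fold and 1.71-fold in the same order. The median of all miRNAs moved the same way without scaling, to a log2 ratio of -0.55 at 2 h and 0.51 at 4 h. The members can also be set against each other on the same array, where the scaling cancels. The log2 ratio of hsa-miR-183 minus that of hsa-miR-96 was -0.12 (SE 0.20) at 2 h and 0.033 (SE 0.20) at 4 h. The log2 ratio of hsa-miR-182 minus that of hsa-miR-96 was -0.44 (SE 0.32) at 2 h and 0.39 (SE 0.28) at 4 h. None of these 4 differences lay beyond 1.96 SE. Between the berberine arrays, the log2 ratio of 4 h over 2 h of hsa-miR-182 minus that of hsa-miR-96 was 0.64 (SE 0.32), just beyond 1.96 SE, and this value holds the change of summed probes in hsa-miR-182 described next.

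Between the 2 control arrays, which held no berberine, the scaled log2 ratio of 4 h over 2 h was -0.11 (SE 0.15) for hsa-miR-96, -0.039 (SE 0.13) for hsa-miR-183 and -0.31 (SE 0.25) for hsa-miR-182. Each was lower at 4 h by less than 1.96 SE. Of the members, 0 of 3 were more than 2-fold changed between the controls, against 1 miRNA higher (0.457%) and 4 lower (1.83%) of 219, together 2.28%. Beyond 1.96 SE lay 0 of 3 members and 15 of 219 miRNAs (6.85%). Time and array cannot be told apart there.

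hsa-miR-182 was the member whose scaled ratios at the 2 times differed beyond their error, and this was not seen when the same probes were summed on all arrays. Its berberine log2 ratio at 4 h minus that at 2 h was 0.79 (SE 0.37, 95% range 0.060 to 1.53). The array has 4 probes for hsa-miR-182, and the total adds only the probes above 3 times their own error on that array. Probe A_25_P00012095 passed on all 4 arrays. Probe A_25_P00012094 passed on the control array at 2 h, with a signal of 2.10 against a limit of 1.80, and on the berberine array at 4 h, with 2.61 against 1.94. It missed on the berberine array at 2 h, with 1.34 against 2.40, and narrowly on the control array at 4 h, with 2.07 against 2.31. Its signals on the 2 arrays of control thus differed little, yet it was added to the total on only the array at 2 h. Where it was added, it made up 18.4% of the total on the control array at 2 h and 18.0% on the berberine array at 4 h.

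When only the probes that passed on all 4 arrays were summed, probe A_25_P00012095 alone was left for hsa-miR-182. The 75th percentile was then also taken over these sums, which by itself moves every ratio. In this setting the log2 ratio was -0.10 (SE 0.29) at 2 h and 0.0021 (SE 0.25) at 4 h. The difference between the times was 0.10 (SE 0.39, 95% range -0.65 to 0.86). With the percentile unchanged, the spots of this probe gave -0.15 at 2 h and 0.10 at 4 h. A setting with another background correction, normexp, also added an offset of 50 and used median spot signals. There the difference turned to -0.69. No corrected spot of hsa-miR-182 exceeded 49.1 on any array, so the offset was larger than each of them. This value therefore cannot show what background correction alone does to hsa-miR-182. Summing both probes on every array, an alternative added once the data had been seen, put hsa-miR-182 at -0.13 and 0.058. The other 2 members summed the same probes on all arrays as deposited. With the 75th percentile taken over the same-probe signals, hsa-miR-183 was at -0.070 and -0.073 and hsa-miR-96 at 0.049 and -0.11. Over all miRNAs, the summed probes differed between the arrays for 32 of 197 at 2 h and for 37 of 218 at 4 h.

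**Figure D3:**
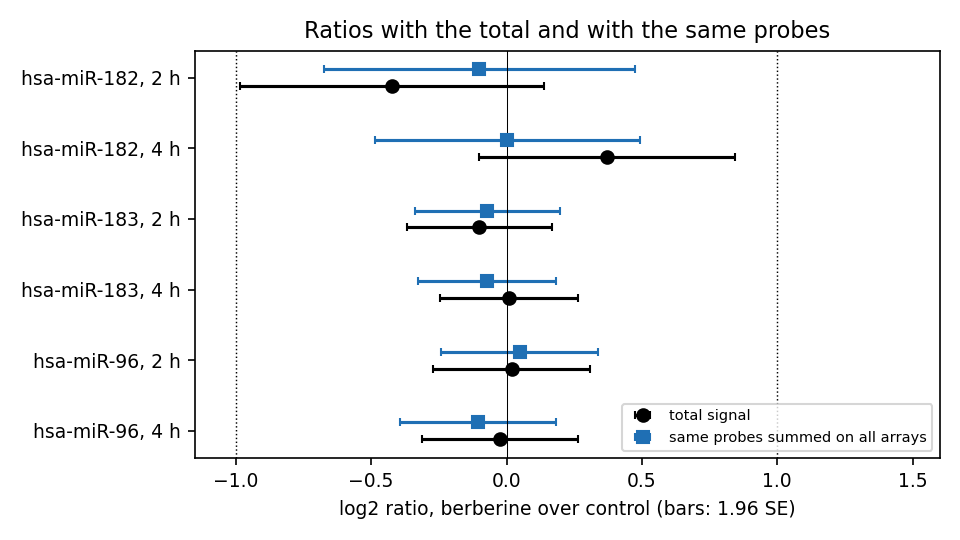
Log2 ratio of berberine over control for each member and time, from the scaled total signal (black circles) and from a sum over identical probes on each array (blue squares), with bars of 1.96 SE and dotted lines at 2-fold. For hsa-miR-182 the ratio of -0.42 at 2 h becomes -0.10 and that of 0.37 at 4 h becomes 0.0021, while hsa-miR-183 and hsa-miR-96 stay within 1.96 SE of no change either way.

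The spots of single probes show how each probe behaved. The 3 members have 10 probes in all, of which 6 entered the total on all 4 arrays and 3 on none. A probe was printed as 4 or 8 spots per array, and the spots are repeats on the same array and not replicates. Feature Extraction marked 6 of the 128 spots of the 6 probes as outliers, and these were left out of the values that follow unless stated. The coefficient of variation over spots was then 0.609% to 13.2%, with a median of 5.43%, and 2.84% to 13.2% with all spots kept. The lowest value came from probe A_25_P00012034 of hsa-miR-96 on the berberine array at 4 h, where 4 of 8 spots were marked. The spot ratio of hsa-miR-96 was 0.995-fold and 1.00-fold for its 2 probes at 2 h, and 1.01-fold and 0.986-fold at 4 h. With all spots kept, the first of these probes was at 0.962-fold at 2 h and 0.998-fold at 4 h. The 3 probes of hsa-miR-183 gave 0.951, 0.882 and 0.940-fold at 2 h and 1.11, 0.982 and 1.00-fold at 4 h. For hsa-miR-182 its steady probe was at 0.902-fold (2 h) and 1.07-fold (4 h). Over the 6 probes and 2 times, the scaled spots of berberine and control overlapped in 11 of 12 cases, with or without the marked spots. The exception was probe A_25_P00012098 of hsa-miR-183 at 2 h, whose highest berberine spot (0.2885 of the 75th percentile) lay just under its lowest control spot (0.2890). Overlap was not counted for the other probes of the array, so the usual share is not known and this count is a description only.

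**Figure D4:**
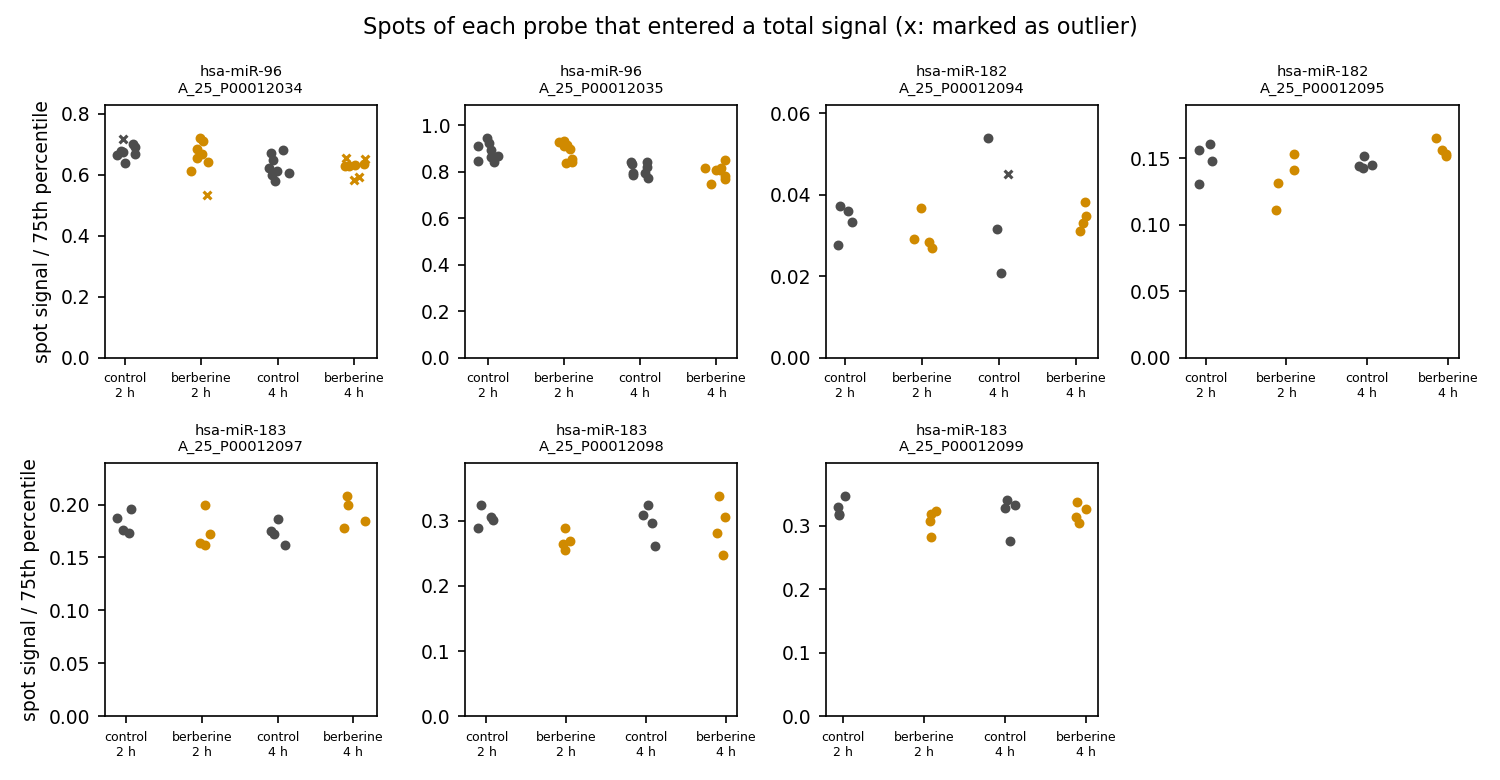
Spot signals divided by the 75th percentile of the array, for the 7 probes of the 3 members that entered a total signal on at least 1 array, control in grey and berberine in orange, with crosses for spots that Feature Extraction marked as outliers. The spots of berberine and control overlap for 11 of the 12 pairs of time and fully detected probe, a count not made for other probes. The exception is A_25_P00012098 of hsa-miR-183 at 2 h, and probe A_25_P00012094 of hsa-miR-182 is near the level of its error.

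A test was possible only over both times together. limma was fitted to the 197 miRNAs with treatment and time point as terms, which leaves 1 residual degree of freedom and treats the pair of times as repeats. Its p-values therefore measure the spread between these arrays and not between cultures. The log2 ratio was -0.0013 for hsa-miR-96 (SE 0.21, adjusted p = 0.997 from limma, 95% interval 0.751 to 1.33-fold). It was -0.045 for hsa-miR-183 (SE 0.21, adjusted p = 0.997 from limma, 95% interval 0.728 to 1.29-fold). For hsa-miR-182 it was -0.026 (SE 0.21, adjusted p = 0.997 from limma, 95% interval 0.731 to 1.32-fold). The value for hsa-miR-182 averages ratios of opposite sign, -0.42 at 2 h and 0.37 at 4 h. Thus 0 of 3 members were changed at an adjusted p under 0.05, against 1 of 197 miRNAs (0.508%), and 0 of 3 had an unadjusted p under 0.05, against 9 of 197 (4.57%). The spread came mostly from the whole set of miRNAs (54.2 prior degrees of freedom), and the adjusted p of the members over all settings ran from 0.740 to 1.

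The other strands of the same hairpins were on the array as hsa-miR-182*, hsa-miR-183* and hsa-miR-96*, and none was detected on any of the 4 arrays. Of all 851 human miRNAs, 599 were likewise detected on none, so the absence of these 3 is not particular to them. Their mature sequences in RefSeq, under names with -3p and with the seeds in capitals, show which arm gave no signal.
hsa-miR-182*: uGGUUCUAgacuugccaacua
hsa-miR-183*: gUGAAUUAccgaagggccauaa
hsa-miR-96*: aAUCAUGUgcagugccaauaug
Each had 4 probes, and no probe of the 3 was above 3 times its error on any array. The nearest was a probe of hsa-miR-183*, at 2.57 times its error. No seed of these asterisk strands is shared with a member.

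A search of the mature miRNAs in RefSeq found 1 other with the seed of hsa-miR-96, hsa-miR-1271-5p, and none with the seed of hsa-miR-182 or of hsa-miR-183. It is encoded on chromosome 5 and shares 9 of 22 bases with hsa-miR-96 (40.9%), among them the whole seed.
hsa-miR-1271 (MIR1271, plus strand, chr5:176367960-176367981): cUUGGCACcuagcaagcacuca
hsa-miR-1271 was not detected on any of the 4 arrays. Of the miRNAs with the seed UUGGCAC, hsa-miR-96 was thus the detected one.

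Other miRNAs of the same stretch of chromosome 7, fixed as a list of 10 by position, were examined in the same way. On all 4 arrays 4 of them were detected, hsa-miR-335, hsa-miR-335*, hsa-miR-29a and hsa-miR-29b, and 4 were detected on none. Over all 851 human miRNAs these counts were 197 and 599. hsa-miR-29b is also encoded at another locus. The ratios at 2 h ran from -0.31 to -0.022 on the log2 scale over 4 miRNAs, with a median of -0.13, against -0.020 over all miRNAs. At 4 h they ran from -0.21 to 0.60 over 6 miRNAs, with a median of 0.20, against 0.11. None was more than 2-fold changed at either time. hsa-miR-29a and hsa-miR-29b, which repress collagen genes, were at -0.035 and -0.022 at 2 h and at 0.18 and 0.23 at 4 h, all within 1.96 SE. hsa-miR-335* at 4 h (log2 ratio 0.60, SE 0.27) was the single ratio beyond 1.96 SE, and with the same probes summed it was 0.056 (SE 0.38). Both hsa-miR-335 and hsa-miR-335* at 2 h summed 2 probes with DMSO but only 1 with berberine. With the same probes summed, they were at -0.11 (SE 0.24) and 0.63 (SE 0.42) at 2 h. hsa-miR-29a and hsa-miR-29b were then at -0.0059 and 0.0070. Their summed probes did not change, so they moved only with the 75th percentile, taken anew over these sums. By that sum the 4 ratios at 2 h lay on both sides of no change.

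The miRNAs whose pattern was most like that of each member were found by the distance between the 4 scaled log2 signals, each centred on its mean. Nearest to hsa-miR-96 were hsa-let-7i (distance 0.023), hsa-miR-93 (0.050) and hsa-miR-1246 (0.057). Nearest to hsa-miR-183 were hsa-miR-30e* (0.036), hsa-let-7g (0.040) and hsa-miR-17* (0.042). Nearest to hsa-miR-182 were hsa-miR-335 (0.11), hsa-miR-33a (0.12) and hsa-miR-340* (0.17). Each of these last 3 has 2 probes on the array and summed 2 of them on the control array at 2 h and the berberine array at 4 h but 1 on the others, as hsa-miR-182 did. With the same probes summed, hsa-miR-335 was at -0.11 and 0.15, hsa-miR-33a at 0.11 and -0.12, and hsa-miR-340* at -0.033 and -0.079. No member was among the nearest of another. hsa-miR-183 came 51st of 196 for hsa-miR-96, and hsa-miR-182 came 160th. With 4 arrays such a ranking is a description only.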

How the data were processed

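For each of the 4 arrays the authors deposited the text output of Agilent Feature Extraction 10.7.3.1, in which every spot, probe and miRNA has an intensity corrected for background but not scaled between arrays. The array design names build hg18, from which no positions were taken. A deposited table of the authors' own ratios of berberine over control was not used. Here, log2 total signals of human miRNAs were reduced by the 75th percentile of their array over the 197 detected on all 4 arrays. Ratios were formed where a miRNA was detected on both arrays, with errors propagated from the Feature Extraction errors and 95% ranges of 1.96 SE. The 2-fold boundary is that of the study's methods. Benjamini-Hochberg adjustment in limma (3.58.1, under R 4.3.3) ran over all 197, and the steps were tested on simulated data. The other tools were Python 3.11.15 with pandas 2.3.3, numpy 2.4.6, scipy 1.17.1 and, for plots, matplotlib 3.10.9. The members and lists were chosen with earlier results of these data known. Named miRNAs were the members, their asterisk strands, miRNAs with a member's seed, a list by position on chromosome 7, and the 3 most alike by distance. Array names without an arm were read as the -5p strand and those with an asterisk as -3p. Alternatives were other scalings, other probe summaries, normexp with an offset of 50, filters on low signals, a 1.5-fold threshold and other limma settings. normexp used the median spot signal, since a mean was not in the columns. Undetected miRNAs carry a signal of 0.1. Detected total signals began at 1.79 to 2.52, and hsa-miR-182, at 5.93 to 14.5, lies near this limit of the arrays. The local background of the spots was 24 to 28 (medians), which is on the scale of spots and not of total signals. The number of arrays limits the precision.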

Additional observations from a re-analysis of the deposited data

Results flagged for a closer look

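Each of the 3 members lay on different sides of no change at the early and the late time after scaling. On the log2 scale the ratio at 4 h minus that at 2 h was 0.79 for hsa-miR-182, 0.11 for hsa-miR-183 and -0.042 for hsa-miR-96. With 1 array per condition these differences were not tested. Against measurement error alone, that of hsa-miR-182 lay beyond 1.96 SE (SE 0.37), and those of hsa-miR-183 (SE 0.19) and hsa-miR-96 (SE 0.21) did not. With the probes held the same, the difference for hsa-miR-182 was 0.10 (SE 0.39). That setting also takes the 75th percentile anew, over the same-probe sums. hsa-miR-183 was then at -0.070 at 2 h and -0.073 at 4 h, on the same side at both times. It sums the same 3 probes either way, so this move came from the percentile and not from its probes. In the same setting hsa-miR-182 (-0.10 and 0.0021) and hsa-miR-96 (0.049 and -0.11) stayed on different sides.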

How the results depend on the processing

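No pairing by replicate number was possible because every sample carries only replicate number 1, so the groups share fewer than 2 numbers. The time point as a term in limma paired the berberine and control arrays of each time. The limits are those of 1 array per condition, an error that covers the measurement alone, and low signal for hsa-miR-182. Values are log2 ratios, in the order hsa-miR-182, hsa-miR-183, hsa-miR-96, and the cause of each move was not tested unless given. Without scaling the ratios were -0.95, -0.62 and -0.51 at 2 h and 0.77, 0.41 and 0.38 at 4 h, and the differences between the times were 1.72, 1.03 and 0.88, since the brightness of the arrays then stays in them. A 75th percentile over all human miRNAs falls on the undetected value of 0.1 on the berberine array at 2 h, which by construction gave 4.68, 5.01 and 5.13 at 2 h, -0.033, -0.39 and -0.43 at 4 h, 0.19, 0.46 and 0.39 between the controls and differences of -4.72, -5.40 and -5.55. This scaling was not planned for limma. Scaling to the median gave hsa-miR-183 -0.16 and hsa-miR-96 -0.19 at 4 h, and 0.17 and 0.099 between the controls. Quantile normalization gave hsa-miR-182 -0.032 between the controls.

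The choice of probes also moved hsa-miR-182. Its ratios at 2 h, at 4 h and between the controls, and the difference of the times, were -0.13, -0.075, 0.16 and 0.058 with the brightest probe. They were -0.10, 0.0021, 0.054 and 0.10 with the same probes on all arrays, and -0.13, 0.058, -0.00020 and 0.19 with every probe detected on any array. With the mean of all probes the last 3 were 0.044, -0.056 and 0.20. The brightest probe gave hsa-miR-183 -0.17 at 4 h, 0.15 between the controls and a difference of -0.098, and hsa-miR-96 -0.20 at 4 h and 0.056 between the controls. With normexp and its offset of 50, hsa-miR-182 turned to 0.37 at 2 h and -0.32 at 4 h. Its value between the controls was 0.16 and its difference -0.69. hsa-miR-183 was 0.15 at 2 h and -0.20 at 4 h, with a difference of -0.35. The offset exceeds every corrected spot of hsa-miR-182, so its values there do not isolate the background correction.

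Of all human miRNAs, 1 was more than 2-fold higher and 1 lower at each time. At 2 h the number higher was 197 with the percentile over all, 6 with the brightest probe, 2 with the same probes, 2 at 1.5-fold and 0 above the median signal. The number lower at 2 h was 10 without scaling, 2 with the median, 7 at 1.5-fold, and 0 with the percentile over all, each of the 4 other probe summaries, normexp and the filter on signal. At 4 h the number higher was 12 without scaling, 15 at 1.5-fold and 0 with normexp or above the median signal. The number lower at 4 h was 0 without scaling, 2 with the median, 6 with the percentile over all, 3 with the brightest probe, 2 with the mean of probes, 6 at 1.5-fold and 0 with normexp or above the median signal.

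In limma the sign of hsa-miR-182 turned with quantile normalization (0.053) and with normexp (0.026). Leaving out 1 array at a time, which drops the time point, gave -0.27 to 0.21 for hsa-miR-182, -0.080 to -0.0091 for hsa-miR-183 and -0.079 to 0.076 for hsa-miR-96. The sign of hsa-miR-182 turned without the control or the berberine array at 2 h (0.13 and 0.21), and that of hsa-miR-96 without the control array at 2 h or the berberine array at 4 h (0.055 and 0.076). The adjusted p of every member stayed at or above 0.740 in every limma setting run.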
